A study of Equus asinus with 2 samples.

Results

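Retinoic acid is made, bound, sensed and broken down by a small set of proteins, and 9 of their genes were followed here through single cells of the fetal donkey gonad. The set holds the synthesis enzymes ALDH1A1, ALDH1A2 and ALDH1A3, the breakdown enzymes CYP26A1 and CYP26B1, the binding proteins CRABP1 and CRABP2, the receptor RARB and the target gene STRA8. They were chosen by name, not by level, and are 9 of the 38517 features in the tables. All 9 were found: 7 under their own symbol, and CYP26A1 and CYP26B1 as locus identifiers (LOC106845090 and LOC106828299) that the RefSeq gene table of the donkey pairs with these symbols.

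The study sampled 2 tissues, each as 1 single-cell RNA library. The younger library came from gonad together with mesonephros, the transient fetal kidney beside it, at 4 weeks of gestation, and the older one from tissue labelled ovary at 8 weeks. No strain, treatment or sex is given in the labels, the number of fetuses behind each library is not stated, and both carry the cell type label germ cells. With 1 library per stage there is no replicate, so stage, tissue, animal and library cannot be told apart and no test between stages was made. Every interval below is a 95% interval for counting error only.

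Retinol is oxidised to retinal by dehydrogenases such as RDH10, and retinal to retinoic acid by the ALDH1A enzymes. Retinoic acid crosses to neighbouring cells, is bound in the cytoplasm by the CRABP proteins, acts in the nucleus through receptors of the RAR and RXR families, and is removed by the CYP26 enzymes. In the mouse, retinoic acid reaches the germ cells of the fetal ovary, which switch on STRA8 and enter meiosis, while CYP26B1 made by Sertoli cells keeps it from the germ cells of the fetal testis. RARB is itself a classic target of the pathway, with a response element in its promoter.

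RNA molecules were counted by UMIs (unique molecular identifiers, short tags added to each molecule before amplification). A level is given as CPM: a class's UMIs for 1 gene, per 1000000 of all its UMIs. Values are given as the 4-week level and then the 8-week level. Gene lengths were not used, so CPM are compared between cells for 1 gene and never between genes. After a minimum of 200 genes per cell, 8912 and 14590 cells were kept, with a median of 7728 and 5877 UMIs in the deposited barcodes. Cells were sorted into 13 classes by marker gates that hold none of the 9 genes, and 8.61% and 4.59% of the cells passed 2 or more gates and were set aside. The gates gave 482 and 943 germ-cell-like cells (5.41% and 6.46% of the kept cells), 506 and 639 Sertoli-like, 187 and 612 steroidogenic-like, 1139 and 5815 stroma-like, 1398 and 633 endothelial-like and 135 and 810 macrophage-like cells. Kidney cells came from the 4-week library: 788 proximal-tubule-like cells against 10 at 8 weeks, 356 distal-tubule-like cells against 1 and 104 podocyte-like cells against 1. The supporting cells went against the label ovary: AMH, the Sertoli cell hormone, stood at 2907 and 3288 CPM in Sertoli-like cells. In the whole libraries AMH had 51369 and 79798 UMIs, and FOXL2, the granulosa cell factor, had 126 and 240. SRY, the male sex-determining gene, had 427 and 1495 UMIs, and RSPO1, a gene of the ovarian pathway, had 600 and 271.

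A gated class is a range and not a cell type. Gates were scaled to the library mean, so some differed between the libraries. In marker UMIs per 10000 UMIs they were 17.2 and 5.79 for endothelial-like, 15.7 and 50.8 for stroma-like and 3.17 and 13.2 for macrophage-like cells. The germ-cell-like gates lay closer, at 3.29 and 3.59. The part of unequal gates in the ratios between the libraries was not tested. Up to 25% above the gate lay 1 and 19 germ-cell-like, 7 and 24 Sertoli-like, 41 and 30 endothelial-like and 45 and 1484 stroma-like cells. A gate for contractile cells (ACTA2, MYH11 and others) took 964 and 1346 cells, but at 4 weeks 4 stroma genes and 1 contractile gene were among its top 10 genes by fold, so it is named only as the contractile gate. The median Sertoli-like cell held steroidogenic markers at 9.94 and 8.62 per 10000 UMIs, below that gate of 15.5 and 15.2. Macrophage-like cells served as the measure of free RNA, chosen after the values were seen, because RARB and CYP26B1 were high in endothelial-like cells and only 47 erythroid-like cells were found at 8 weeks. Summed stroma markers in macrophage-like cells stood at 2.05% of the stroma-like level at 4 weeks and at 18.2% at 8 weeks. The 432 erythroid-like cells of 4 weeks stood higher, at 4.84%. ALDH1A2 stood there at 6.68% and CRABP2 at 12.5% of the stroma-like level, against 1.42% and 8.69% in macrophage-like cells. ALDH1A1 and CYP26B1 went the other way, at 0.955% and 0.981% of the Sertoli-like level, against 2.36% and 6.33% in macrophage-like cells. Both libraries held 38 barcodes in common. Without them the count of genes 2-fold or more apart in endothelial-like cells was 7 instead of 8, through CRABP1, and the counts for the other 6 classes compared were the same.

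**Figure D1:**
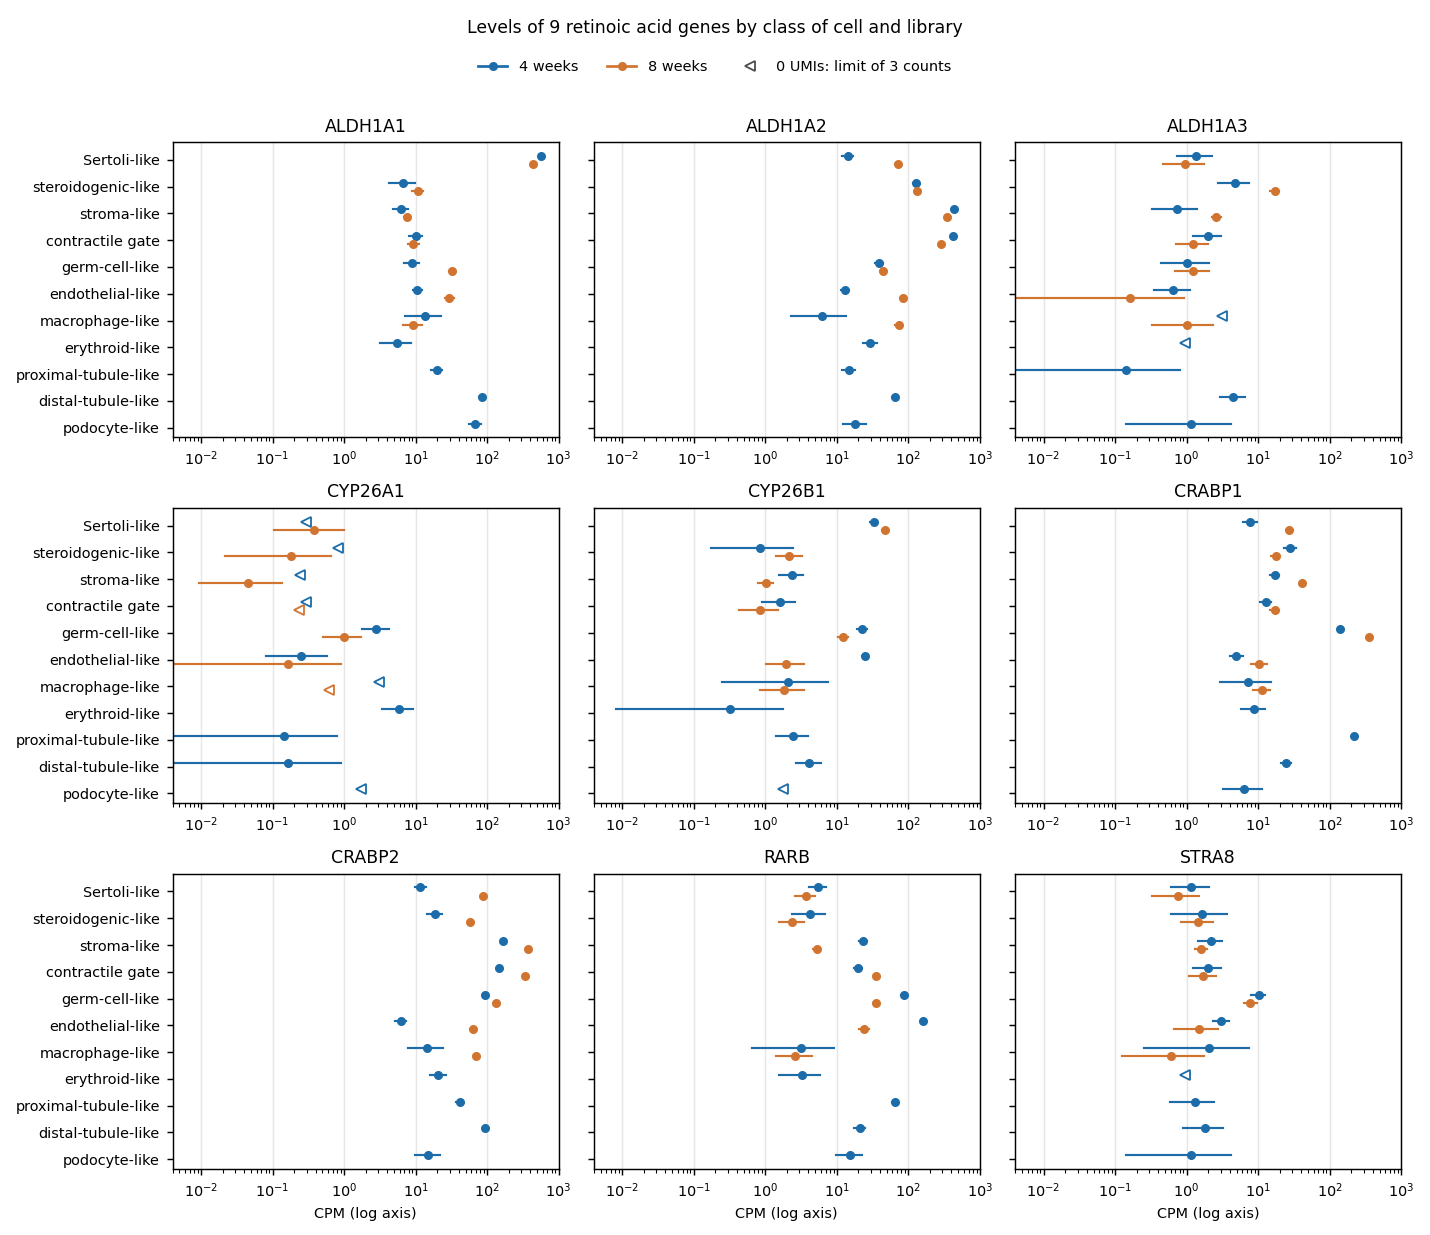
Level of each of the 9 genes in CPM on a log axis, by class of cell, at 4 weeks (blue) and 8 weeks (orange). Points are sums over the cells of classes with 50 or more cells. The lymphoid-like class (82 cells at 4 weeks) is not drawn. Lines are 95% Poisson intervals, and open triangles mark the limit of 3 counts where no UMI was found. ALDH1A1 is highest in Sertoli-like cells, ALDH1A2 and CRABP2 in stroma-like cells and STRA8 in germ-cell-like cells of both libraries.

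The 2 main synthesis enzymes lay in different cells. ALDH1A1, a retinal dehydrogenase, had its peak in Sertoli-like cells, at 573 CPM (558 to 588) and later 441 CPM (428 to 454). This was 42.5-fold and 48.2-fold above macrophage-like cells (13.5 and 9.14 CPM) and the ratio of 8 over 4 weeks was 0.769 (0.740 to 0.7999). A UMI was found in 91.5% and 82.8% of Sertoli-like cells (median 15087 and 11297 UMIs) and in 8.15% and 5.06% of macrophage-like cells (5654 and 5192 UMIs). With each cell thinned to 1000 UMIs the Sertoli-like shares were 39.9% (35.6 to 44.3) and 34.0% (30.3 to 38.0), against 0.813% and 1.05% in macrophage-like cells. Sertoli-like cells held 51.2% and 42.2% of all ALDH1A1 UMIs of their library, and cells that passed 2 or more gates held another 34.7% and 41.6%.

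Part of those set-aside cells came from 1 marker. The row named HSD3B2, an enzyme of steroid synthesis used in the steroidogenic gate, stood at 455 and 196 CPM in Sertoli-like cells gated without it. Leaving it out, a choice made after the data were seen, raised the number of Sertoli-like cells to 604 and 742, and ALDH1A1 stood there at 585 and 454 CPM.

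Outside the gonad, ALDH1A1 came next in the kidney cells of the 4-week library, at 84.6 CPM (77.5 to 92.3) in distal-tubule-like and 67.6 CPM (55.8 to 81.1) in podocyte-like cells, whose intervals overlap. Proximal-tubule-like cells, at 19.7 CPM, did not stand above macrophage-like cells.

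Germ-cell-like cells held ALDH1A1 at 8.89 CPM (6.92 to 11.3) at 4 weeks, an interval that overlaps that of macrophage-like cells, and at 32.3 CPM (29.2 to 35.7) at 8 weeks. This 3.63-fold difference (2.81 to 4.76) rested on few cells. At 8 weeks 129 of 943 germ-cell-like cells had an ALDH1A1 UMI, and the 10 cells with most of them, a description chosen after the values were seen, held 43.1% of the 394 UMIs. AMH stood at 489 CPM in those 10 cells and at 80.2 CPM in the other germ-cell-like cells, and their median depth was 48264 UMIs against 8791 in the class. Without cells over 3 times the median UMIs, the log2 ratio of 8 over 4 weeks was 0.79 in place of 1.86, and it lay under 2-fold in 4 of 9 alternative settings. The part of Sertoli RNA in this difference was not tested.

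ALDH1A2, the synthesis enzyme of mesenchyme in the embryo, was the stroma enzyme. Its level was 438 CPM (427 to 450) and 347 CPM (343 to 352) in stroma-like cells, a ratio of 0.792 (0.769 to 0.816). The contractile gate followed at 420 and 282 CPM, and stroma-like and contractile cells together held most ALDH1A2 UMIs (43.8% and 34.2% at 4 weeks, 63.2% and 10.1% at 8 weeks). Thinned to 1000 UMIs, 31.8% and 32.1% of stroma-like cells had a UMI, against 0 of the macrophage-like cells at 4 weeks (up to 2.44%) and 3.93% at 8 weeks.

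Steroidogenic-like cells held ALDH1A2 at 127 CPM (116 to 139) and 132 CPM (126 to 139), with a ratio of 1.04 between the libraries (0.936 to 1.16). This was 29.0% and 38.1% of the stroma-like level, while summed stroma markers in the same cells stood at 10.04% and 26.2% of theirs. In distal-tubule-like cells ALDH1A2 stood at 65.7 CPM, 15.0% of the stroma-like level beside 4.996% for the stroma markers.

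Sertoli-like, endothelial-like and macrophage-like cells all had more ALDH1A2 at 8 weeks. Sertoli-like cells stood at 14.1 and 70.9 CPM, a ratio of 5.02 (4.20 to 6.03). Endothelial-like cells stood at 13.0 and 83.0 CPM, a ratio of 6.40 (5.49 to 7.46), and macrophage-like cells at 6.23 and 73.3 CPM, a ratio of 11.8 (5.36 to 32.3). Stroma markers moved with them. At 8 weeks ALDH1A2 in these 3 classes was 20.4%, 23.9% and 21.1% of the stroma-like level, and the stroma markers 18.0%, 19.5% and 18.2%. At 4 weeks ALDH1A2 was at 3.22%, 2.96% and 1.42%, and the markers at 3.08%, 2.51% and 2.05%. In both libraries the ALDH1A2 intervals of Sertoli-like and endothelial-like cells overlapped that of macrophage-like cells.

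**Figure D2:**
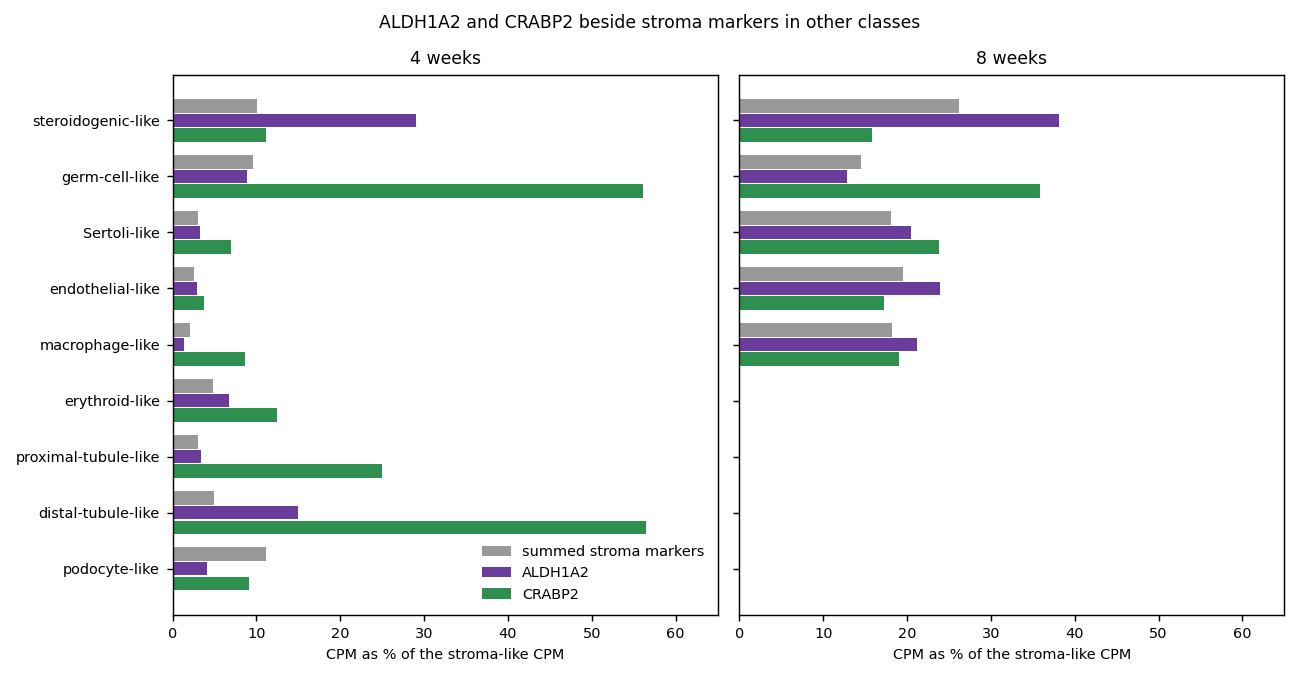
CPM of ALDH1A2 (purple), CRABP2 (green) and the summed stroma markers (grey) in other classes, each as a percent of its CPM in stroma-like cells, at 4 weeks (left) and 8 weeks (right; kidney and erythroid classes had too few cells). At 8 weeks the 3 bars lie between 17.2% and 23.9% in Sertoli-like, endothelial-like and macrophage-like cells, while CRABP2 in germ-cell-like cells (56.2% and 35.8%) and ALDH1A2 in steroidogenic-like cells (29.0% and 38.1%) stand above the stroma markers of the same cells.

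Germ-cell-like cells held ALDH1A2 in few cells at 4 weeks. It stood there at 38.9 CPM, but 10 of the 482 cells held 73.2% of its 302 UMIs, and those 10 cells had stroma markers at 3122 CPM against 371 CPM in the others. Without them ALDH1A2 stood at 11.1 CPM.

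ALDH1A3, the remaining retinal dehydrogenase, had 200 and 491 UMIs in the whole libraries. At 8 weeks it was highest in steroidogenic-like cells, at 17.3 CPM (14.9 to 19.9), 17.0-fold above macrophage-like cells and 6.59-fold above the next class, the stroma-like cells at 2.62 CPM. At 4 weeks steroidogenic-like cells stood at 4.71 CPM (2.75 to 7.55) and distal-tubule-like cells at 4.45 CPM (2.94 to 6.48), intervals that overlap each other and the limit of 3.11 CPM set by 0 UMIs in macrophage-like cells. The ratio in steroidogenic-like cells was 3.67 (2.23 to 6.43). The 191 UMIs at 8 weeks were spread over 134 of the 612 cells, and the 10 cells with most held 15.7%.

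Genes upstream of the ALDH1A enzymes were highest in several classes. RDH10, which makes the retinal that ALDH1A enzymes use, stood at 78.9 and 28.4 CPM in Sertoli-like cells, a ratio of 0.360 (0.314 to 0.411), and at 99.8 CPM in distal-tubule-like cells. RDH11, a retinal reductase, was highest in steroidogenic-like cells at 316 and 123 CPM. The proximal-tubule-like cells carried the uptake genes: STRA6, the receptor for circulating retinol-binding protein, stood at 152 CPM, and TTR, the plasma partner of RBP4, at 497 CPM. DHRS3, which returns retinal to retinol, was highest in macrophage-like cells, at 35.3 and 71.7 CPM.

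The binding proteins were highest in different cells. CRABP1 was a germ cell and tubule gene. In germ-cell-like cells it stood at 140 CPM (132 to 149) and 358 CPM (347 to 369), a ratio of 2.55 (2.39 to 2.73), with a UMI in 70.1% and 78.4% of the cells against 4.44% and 4.81% of macrophage-like cells. Thinned shares were 13.9% (10.9 to 17.3) and 27.3% (24.4 to 30.3). The UMIs were spread widely, as the 10 highest cells held 12.2% and 10.7%. Under the 9 alternative settings its log2 ratio lay between 1.26 and 1.37.

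At 4 weeks proximal-tubule-like cells stood above the germ-cell-like cells, at 221 CPM (211 to 233), with a UMI in 59.6% of the cells. No other class reached 30 CPM at 4 weeks. At 8 weeks stroma-like cells came second at 40.9 CPM (39.4 to 42.5), against 17.2 CPM (14.9 to 19.6) at 4 weeks, followed by Sertoli-like cells at 27.3 CPM, against 7.84 CPM at 4 weeks. Steroidogenic-like cells stood at 28.0 and 17.6 CPM, a ratio of 0.630 (0.493 to 0.809). At 4 weeks 10 of the 187 steroidogenic-like cells held 76.2% of the 101 UMIs.

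CRABP2, which carries retinoic acid to its receptors, was highest in stroma, where ALDH1A2 was. The stroma-like level was 167 CPM (160 to 174) at 4 weeks and 369 CPM (364 to 374) at 8, a ratio of 2.21 (2.11 to 2.31), and at 147 and 338 CPM in the contractile gate. Of the stroma-like cells with a CRABP2 UMI, 87.4% and 85.2% also held an ALDH1A2 UMI, beside 78.7% and 75.4% of all stroma-like cells. These shares were not matched for depth and are a description.

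CRABP2 was also present in germ-cell-like cells, at 93.8 CPM (87.1 to 101) and 132 CPM (126 to 139). That was 56.2% and 35.8% of the stroma-like level, while stroma markers in these cells stood at 9.60% and 14.5% of theirs. Distal-tubule-like cells stood at 94.4 CPM, and the interval overlaps that of the germ-cell-like cells. In Sertoli-like, steroidogenic-like and endothelial-like cells the 8-week level was 87.8, 58.4 and 63.4 CPM, beside 70.3 CPM (63.1 to 78.1) in macrophage-like cells. Of the 3, the Sertoli-like interval (82.2 to 93.7) lay above that of macrophage-like cells, and stroma markers in Sertoli-like cells stood at 18.0% of the stroma-like level. Their ratios of 7.50 (6.197 to 9.14), 3.14 (2.44 to 4.10) and 10.2 (8.28 to 12.5) stand beside 4.84 (2.84 to 8.94) in macrophage-like cells.

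CYP26B1, which breaks retinoic acid down, was found in Sertoli-like and germ-cell-like cells and, at 4 weeks, in endothelial-like cells. Its level in Sertoli-like cells was 32.8 CPM (29.4 to 36.5) at 4 weeks and 46.7 CPM (42.7 to 51.1) at 8, 15.8-fold and 25.6-fold above macrophage-like cells, with a ratio of 1.42 (1.24 to 1.64). A UMI was found in 36.6% and 42.7% of the cells against 1.48% and 1.11% of macrophage-like cells. The same cells carried a synthesis enzyme: of the Sertoli-like cells with a CYP26B1 UMI, 99.5% and 96.7% also held ALDH1A1, beside 91.5% and 82.8% of all Sertoli-like cells. Depth was not matched in these paired shares, which are a description. Thinned to 1000 UMIs the CYP26B1 shares were 2.81% (1.54 to 4.66) and 4.96% (3.37 to 7.00), which overlap.

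Endothelial-like cells held CYP26B1 at 24.9 CPM (22.7 to 27.1) in the younger library and at 1.96 CPM (1.01 to 3.43) in the older, where its interval overlaps the 1.83 CPM of macrophage-like cells. The level was 12.7-fold lower at 8 weeks (7.19 to 24.7), from 494 UMIs to 12. Germ-cell-like cells stood at 22.7 CPM (19.5 to 26.3) and 12.4 CPM (10.48 to 14.5), 1.83-fold lower at 8 weeks (1.47 to 2.29). At 4 weeks the endothelial-like and germ-cell-like intervals overlap, and both lie below that of the Sertoli-like cells. Stroma-like, contractile and steroidogenic-like cells, the classes with ALDH1A2, held CYP26B1 at 0.832 to 2.35 CPM and did not stand above macrophage-like cells.

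CYP26A1 was nearly absent, with 60 and 28 UMIs in the whole libraries. Germ-cell-like cells had 22 UMIs in 20 cells at 4 weeks and 12 UMIs in 11 cells at 8 weeks, or 2.84 CPM (1.78 to 4.29) and 0.984 CPM (0.508 to 1.72). Another 18 UMIs at 4 weeks were in 7 erythroid-like cells, up to 5 in 1 cell. These were 18 of 3108219 UMIs in that class, against 22 of 7759695 in germ-cell-like cells, so the erythroid-like level was the higher. Among the 11 classes compared at 4 weeks, only erythroid-like cells stood above macrophage-like cells, and at 8 weeks 0 of 6 classes did. In macrophage-like cells no UMI was found, which allows up to 3.11 and 0.609 CPM, a limit that lies within the germ-cell-like intervals. Some deeper classes set it lower. At 4 weeks no UMI was found in Sertoli-like or stroma-like cells, which allows up to 0.290 and 0.243 CPM. At 8 weeks stroma-like cells had 3 UMIs, or 0.0457 CPM (0.00943 to 0.134). These lie below the germ-cell-like intervals. Sertoli-like cells had 4 UMIs at 8 weeks. Gated without HSD3B2 they stood at 0.339 CPM (0.0924 to 0.869), which overlaps the germ-cell-like interval.

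RARB marked the endothelium at 4 weeks. In endothelial-like cells it stood at 159 CPM (154 to 165) in the younger library and at 24.4 CPM (20.6 to 28.6) in the older, 6.55-fold lower (5.55 to 7.77). A UMI was found in 59.2% and 10.7% of the cells, against 2.22% and 1.48% of macrophage-like cells, and in 18.6% (16.6 to 20.8) and 4.49% (2.95 to 6.51) after thinning. The macrophage-like level was 3.11 and 2.64 CPM. Other classes followed at 4 weeks: germ-cell-like cells at 86.1 CPM, proximal-tubule-like cells at 65.9 CPM and stroma-like cells at 23.2 CPM, each interval below the one before.

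The RARB of 8-week endothelial-like cells lay in few cells. The cells were divided by a UMI of PROX1, a factor of lymphatic endothelium, or of PLVAP, a protein of fenestrated vessels, a split chosen after the values were seen. At 8 weeks 66 of 633 endothelial-like cells held PROX1, and RARB stood there at 142 CPM, against 7.12 CPM in the other 567 cells, 20-fold higher with PROX1 (13.7 to 29.7). LYVE1 and FLT4, both known from lymphatic vessels, stood in the PROX1 cells at 471 and 340 CPM, against 15.5 and 92.7 CPM without PROX1. Median depth was 7182 UMIs with PROX1 and 4622 without.

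At 4 weeks RARB differed little by PROX1. It stood at 137 CPM in the 223 cells with PROX1 and at 169 CPM in the 1175 without, a ratio of 0.815 (0.752 to 0.883), at median depths of 20525 and 6513 UMIs, and LYVE1 stood at 99.2 and 42.1 CPM. By PLVAP, RARB was at 171 CPM in 1068 cells with PLVAP and at 64.6 CPM in 330 without, a ratio of 2.65 (2.23 to 3.16), at median depths of 9448.5 and 4218.5 UMIs. At 8 weeks PLVAP gave 22.7 and 27.6 CPM, a ratio of 0.822 (0.584 to 1.17).

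**Figure D3:**
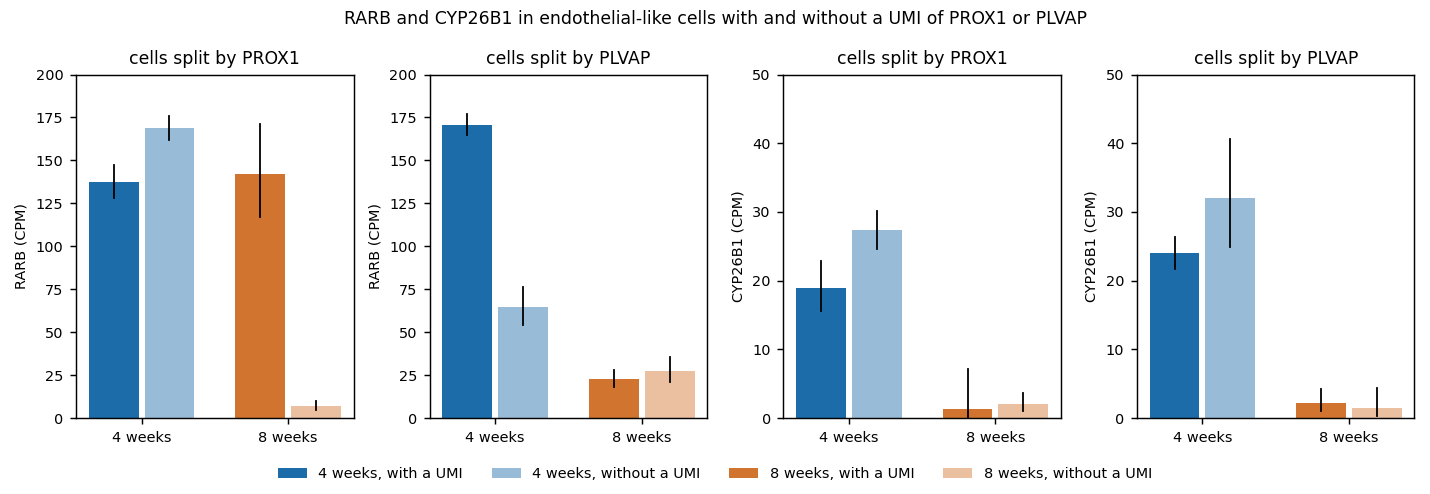
RARB and CYP26B1 in CPM (axes from 0) in endothelial-like cells with (dark) and without (pale) a UMI of PROX1 or PLVAP, at 4 weeks (blue) and 8 weeks (orange). Lines are 95% Poisson intervals. RARB at 8 weeks is 142 CPM with PROX1 and 7.12 CPM without, while CYP26B1 at 8 weeks is at or under 2.20 CPM in all 4 groups.

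CYP26B1 had 1 UMI in the 8-week PROX1 cells and 11 in the others. At 4 weeks it stood at 19.0 CPM with PROX1 and 27.3 CPM without. Of the 270 endothelial-like cells of 4 weeks with a CYP26B1 UMI, 78.1% also held RARB, beside 59.2% of all endothelial-like cells. Here too depth was not matched, and the shares are a description.

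In germ-cell-like cells RARB stood at 86.1 CPM (79.7 to 92.9) and 35.1 CPM (31.8 to 38.6), 2.45-fold lower at 8 weeks (2.17 to 2.78). In stroma-like cells it stood at 23.2 and 5.26 CPM, 4.42-fold lower (3.76 to 5.18). The contractile gate stood at 19.9 and 35.3 CPM, a ratio of 1.78 (1.501 to 2.11), and at 8 weeks it shared the highest rank with germ-cell-like cells, whose interval overlaps. Sertoli-like cells, at 5.42 and 3.65 CPM, and steroidogenic-like cells, at 4.16 and 2.35 CPM, did not stand above macrophage-like cells.

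The other receptors were measured in the same classes. RARA lay between 17.5 and 46.5 CPM in germ-cell-like, Sertoli-like, steroidogenic-like, stroma-like, endothelial-like and macrophage-like cells of both libraries. RARG stood at 13.1 and 10.2 CPM in germ-cell-like cells and at 12.5 and 6.05 CPM in endothelial-like cells, and at or under 5.19 CPM in the other 4 of these classes. RXRG was at or under 0.644 CPM in all 6.

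STRA8 was highest in germ-cell-like cells, at a low level, in both libraries. It had 301 and 327 UMIs in the whole libraries, of which 79 and 95 were in germ-cell-like cells and the rest, the larger part, in other cells. The germ-cell-like level was 10.2 CPM (8.06 to 12.7) and 7.79 CPM (6.30 to 9.52), a ratio of 0.765 (0.562 to 1.04). Macrophage-like cells stood at 2.08 CPM (0.251 to 7.50) and 0.609 CPM (0.126 to 1.78). Only germ-cell-like cells stood above them among the 11 classes compared at 4 weeks and the 6 at 8 weeks.

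A STRA8 UMI was found in 62 of 482 and 81 of 943 germ-cell-like cells (12.9% and 8.59%), against 1.48% and 0.370% of macrophage-like cells, with at most 5 and 6 UMIs in 1 cell. After thinning the shares were 1.05% (0.342 to 2.43) and 0.655% (0.241 to 1.42), near the level of 1 UMI. Of the germ-cell-like cells with STRA8, 85.5% and 90.1% also held CRABP1, beside 70.1% and 78.4% of the class, and 79.0% and 46.9% held RARB, beside 52.7% and 26.9%. Cells in which STRA8 is seen are deeper, so these shares are a description.

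STRA8 was then set beside 21 meiosis genes in germ-cell-like cells split by DAZL, MAEL and DDX4, which mark germ cells that have settled in the gonad. Cells with 2 or more UMIs of the 3 genes numbered 222 and 571, cells with none 154 and 186, and their median depth was 22170.5 and 15069 UMIs against 5406 and 4115. STRA8 stood at 10.2 CPM with and 10.3 CPM without at 4 weeks, a ratio of 0.992 (0.535 to 1.98), and at 8.16 and 5.06 CPM at 8 weeks, a ratio of 1.61 (0.663 to 5.10). Of the meiosis genes with 10 or more UMIs, 6 of 20 were 2-fold or more higher with the 3 genes at 4 weeks and 1 was lower, where 11.4% of all genes tested were 2-fold apart. At 8 weeks 11 of 21 were higher and 1 lower, against 15.3% of all genes. A gene seen at 0 in cells without them counts as higher only where its bound of 3 counts is 2-fold below.

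Among these genes were cohesins, axis proteins and regulators. SMC1B, a meiotic cohesin, stood at 157 and 89.8 CPM at 4 weeks and at 221 and 94.2 CPM at 8 weeks, a ratio of 2.34 at 8 weeks (1.90 to 2.92). STAG3, another cohesin, stood at 47.3 and 15.2 CPM at 8 weeks, a ratio of 3.11 (1.867 to 5.604). ZGLP1, a regulator of oogenic fate, stood at 12.6 and 3.04 CPM, and MSX2, a transcription factor that acts with MSX1 on STRA8 in the mouse, at 28.7 and 4.05 CPM. SYCP3, SYCE3 and DMC1 counted as higher at 8 weeks with 1 UMI each in the cells without. MEIOSIN, the partner of STRA8, had 20 and 6 UMIs at 4 weeks and 28 and 6 at 8 weeks. At 8 weeks it was the gene that was lower, at 2.82 and 6.08 CPM, a ratio of 0.464 (0.189 to 1.37). SYCP3, a core protein of the meiotic chromosome axis, was the lower one at 4 weeks, at 2.42 and 5.56 CPM (13 and 7 UMIs). Its ratio was 0.435 (0.161 to 1.29). Both intervals include 1, as do those of SYCP3, SYCE3 and DMC1 at 8 weeks and of ZGLP1 at 4 weeks, which counted as higher.

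**Figure D4:**
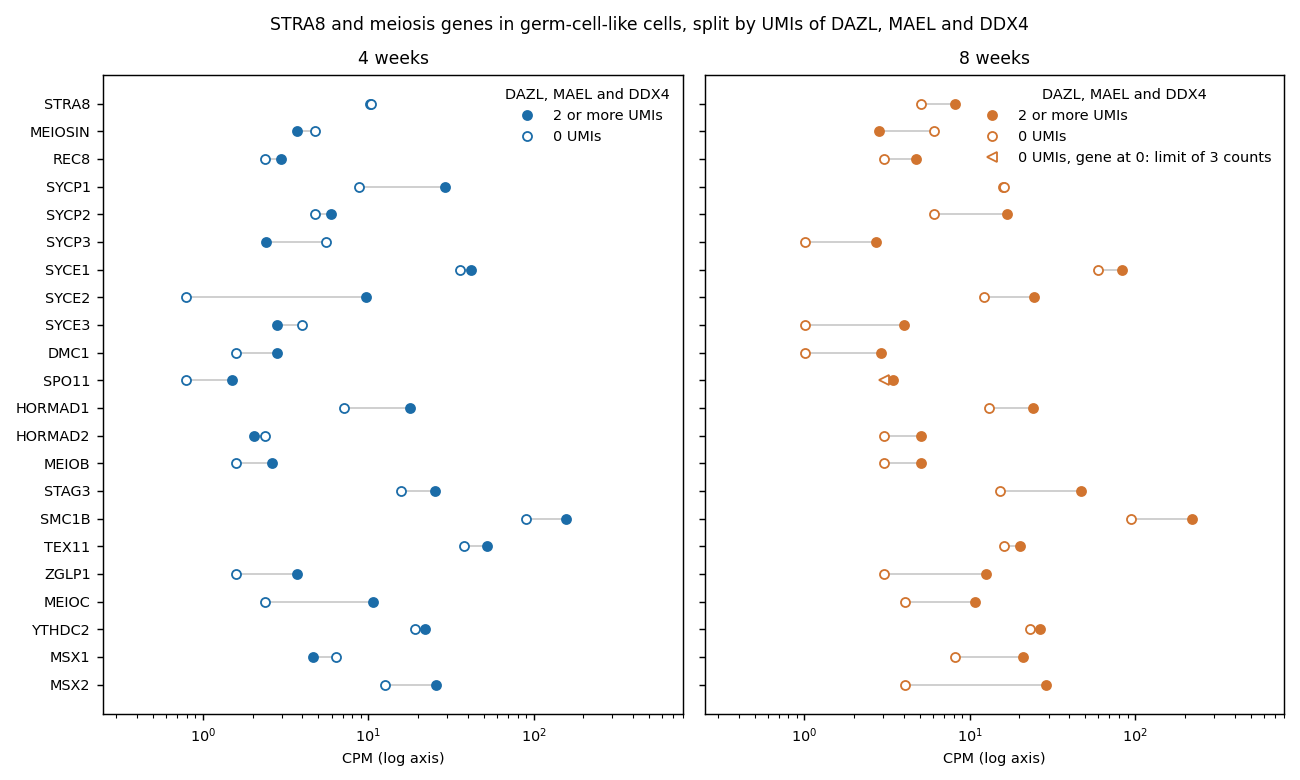
STRA8 and 21 meiosis genes in CPM on a log axis in germ-cell-like cells with 2 or more UMIs of DAZL, MAEL and DDX4 (filled) and with none (open), at 4 weeks (left) and 8 weeks (right). The open triangle marks the limit of 3 counts for SPO11. STRA8 lies at 10.2 and 10.3 CPM at 4 weeks, and SMC1B at 221 and 94.2 CPM at 8 weeks.

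Of the 9 genes, ALDH1A2 and CYP26A1 were 2-fold or more lower with the 3 genes at 4 weeks and CRABP2 at 8 weeks, and none was 2-fold higher. CYP26B1 stood at 19.7 CPM with and 31.8 CPM without the 3 genes at 4 weeks, and at 11.7 and 20.3 CPM at 8 weeks, ratios of 0.621 (0.428 to 0.918) and 0.577 (0.357 to 0.980). ALDH1A2 stood at 28.7 and 87.4 CPM at 4 weeks and at 39.2 and 77.0 CPM at 8 weeks, and CYP26A1 had 14 and 8 UMIs at 4 weeks. The 10 cells of 4 weeks that held 73.2% of the ALDH1A2 UMIs, with stroma markers at 3122 CPM, are among the germ-cell-like cells split here, and their part in its ratio was not tested. CRABP2 stood at 108 and 223 CPM at 8 weeks, 2.05-fold lower with the 3 genes, and CRABP1 at 348 and 356 CPM.

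Between the libraries, a gene was counted as apart at a 2-fold CPM ratio either way with 10 or more UMIs over both. In germ-cell-like cells 4 of 9 genes were apart: ALDH1A1 and CRABP1 higher at 8 weeks, RARB and CYP26A1 lower. Of all 19002 genes tested in these cells, 22.3% were apart. In Sertoli-like cells 3 of 8 were apart, ALDH1A2, CRABP1 and CRABP2, all higher, against 22.5% of all genes. Of these, ALDH1A2 did not stand above macrophage-like cells in either library. In steroidogenic-like cells 3 of 8 were apart, ALDH1A3, CRABP2 and CYP26B1, all higher, against 20.1%, and CYP26B1 rested on 3 and 24 UMIs. Neither CRABP2 nor CYP26B1 stood above macrophage-like cells there at 8 weeks.

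Stroma-like cells had 5 of 8 apart, with ALDH1A3, CRABP1 and CRABP2 higher and RARB and CYP26B1 lower, against 21.2% of all genes. CYP26B1 lay under 2-fold in 2 of 9 alternative settings, and ALDH1A3 in 1. Endothelial-like cells had all 8 tested genes apart, 4 higher (ALDH1A1, ALDH1A2, CRABP1, CRABP2) and 4 lower (RARB, CYP26B1, STRA8, ALDH1A3), against 24.4% of all genes. Only RARB and, at 4 weeks, CYP26B1 and, at 8 weeks, ALDH1A1 stood above macrophage-like cells among them, and ALDH1A3 had 13 and 1 UMIs. Macrophage-like cells had ALDH1A2 and CRABP2 higher, 2 of 6, against 22.5%, and the contractile gate CRABP2 alone, 1 of 8, against 18.1%. The median log2 ratio of all genes was −0.12 in stroma-like cells and −0.15 in the contractile gate, and within 0.062 of 0 in the other 5 classes. The median of the genes tested among the 9 was 0.19 in germ-cell-like, 0.066 in Sertoli-like, 0.38 in steroidogenic-like, −0.029 in stroma-like, 0.0046 in endothelial-like and 0.23 in macrophage-like cells, and −0.16 in the contractile gate.

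**Figure D5:**
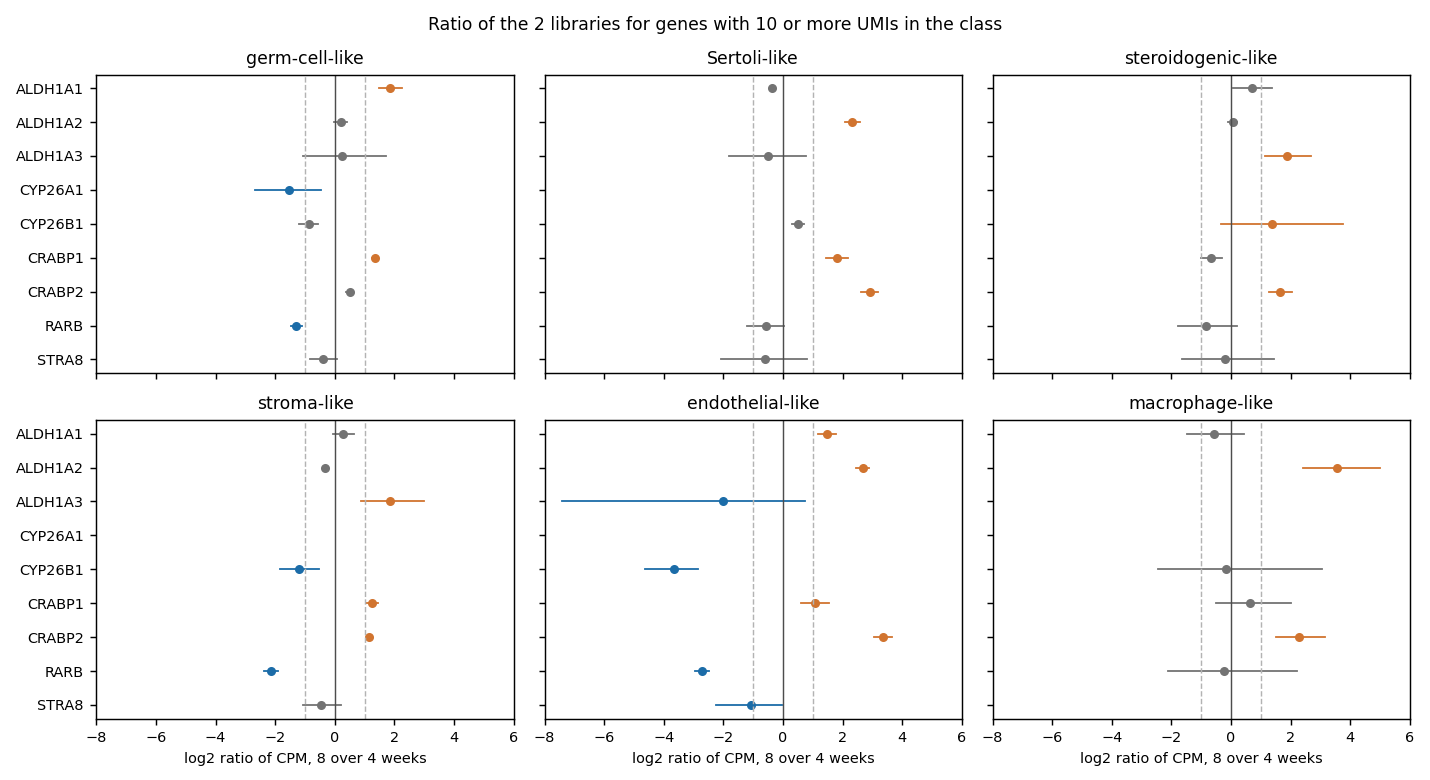
Log2 ratio of CPM at 8 over 4 weeks for each gene with 10 or more UMIs in a class, with 95% intervals for counting error; dashed lines mark 2-fold. Orange is 2-fold or more higher at 8 weeks and blue lower, as for CYP26B1 and RARB in endothelial-like cells at −3.66 and −2.71.

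Other genes of the pathway, 51 in lists of uptake, conversion, binding, receptors, receptor partners and known response genes, were counted in the same way. In germ-cell-like cells 7 of 45 were higher and 3 lower, where 22.3% of all genes were apart. Among the higher were the alcohol dehydrogenase ADH5 (70.0 and 181 CPM) and the fatty acid and retinoic acid binding FABP5 (314 and 740 CPM). Sertoli-like cells had 4 of 41 higher and 7 lower, against 22.5% of all genes. In stroma-like cells 0 of 46 were higher and 11 were lower, where 21.2% of all genes were apart, 1367 higher and 3200 lower. Among the lower were RARRES1, a gene first found as induced by retinoids, at 32.4 and 1.13 CPM, and PPARD, a nuclear receptor, at 52.2 and 20.5 CPM. TTR, named above in the proximal-tubule-like cells of 4 weeks, was also counted as lower in stroma-like cells, with 60 and 2 UMIs. It was counted as lower in Sertoli-like cells too (53 and 0 UMIs) and in endothelial-like cells (102 and 0 UMIs). The part of free kidney RNA in these values was not tested. With the gate at 1 times the library mean the count in stroma-like cells was 17.

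Endothelial-like cells had 7 of 41 higher and 10 lower, against 24.4% of all genes. Known response genes went both ways. Lower were HOXA5 at 23.3 and 4.58 CPM, MEIS2 at 766 and 215 CPM and RARRES1 at 146 and 57.0 CPM. MEIS1, of the same list of response genes, was higher, at 20.6 and 67.2 CPM. Also higher were FABP5 (82.8 and 351 CPM) and STRA6 (6.84 and 28.8 CPM). Of the 21 meiosis genes in germ-cell-like cells 7 were higher, such as SYCE2 at 7.73 and 22.9 CPM, and TEX11 was lower at 47.7 and 19.3 CPM, beside 22.3% of all genes apart in these cells.

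Genes most like each of the 9 were sought by Pearson r of log2(CPM + 1) over 19 points, each a class of 50 or more cells in 1 library, among 15076 genes. The points share libraries, and r is a description. For ALDH1A1 these included LRATD1 and PLA2G2C (r of 0.92 and 0.89), and for ALDH1A2 DTX1, CNTNAP4 and HTR1B (0.97, 0.95 and 0.95). For CYP26B1 they were NANS, SERPING1 and CLDN11 (0.86, 0.85 and 0.82), and for RARB ADAMTS5, KCNMA1 and NIBAN2 (0.93, 0.90 and 0.89). CRABP1 was closest to MMUT, LMO3 and RBP4 (0.91, 0.90 and 0.88), the last a retinol carrier at 46.7 and 40.3 CPM in germ-cell-like cells. CRABP2 was closest to METRN, LOC123283178 and LY6H (0.93, 0.93 and 0.92). ALDH1A3, which reached 10 CPM in 1 class, was closest to HSD11B2, PHLDA2 and MIF (0.86, 0.85 and 0.83), and STRA8 to MTIF2, GEMIN5 and ENTR1 (each 0.92).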

How the data were processed

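For each barcode and gene the authors deposited a raw count of UMIs. Per the file headers these were made by Cell Ranger 7.1.0, and per the submitters' processing notes by version 2.1.1. Per the labels' protocols a DNBelab C series droplet kit was used, while the barcodes have the form Cell Ranger writes, so how UMIs were tagged is uncertain. For the genome build, annotation and intronic reads, the choice is not given in the sources used here. No coordinates or sequences are printed. The planned promoter motif search was not run, since no promoter sequences were used here.

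Cells with 200 or more genes were kept. Marker UMIs per 10000 UMIs of a cell were summed for each of 13 marker lists (100 of 103 markers found). A cell passed a gate with 2 or more distinct markers and a sum of at least 2 times the library mean and at least 2. Stroma-like cells needed 1 times the mean and no other gate. Cells that passed 2 or more other gates were left out, and no doublet caller was run. Classes under 50 cells were not compared. CPM came from summed counts, with exact Poisson intervals, exact conditional binomial intervals for ratios and Clopper-Pearson intervals for shares, all at 95% and for counting error only. Where no UMI was found, 3 counts set the limit. Shares were also taken after thinning each cell to 1000 UMIs (seed 1), leaving out shallower cells. A ratio was counted at 2-fold or more with 10 or more UMIs over both libraries. There were no replicates and no test.

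The 9 genes, marker lists and gene lists were chosen with earlier results of these data known. The named genes are the 9 in every class, up to 6 listed genes per class with the largest ratio at 20 CPM or more, and the 3 genes most like each of the 9; some that meet this rule are not reported here. Other listed genes given with a level or in the germ cell split, the macrophage-like reference, the 10-cell shares, the PROX1 and PLVAP splits and the settings without HSD3B2 or shared barcodes were chosen after values were seen. Alternatives changed the gates, the treatment of cells with several gates, the minimum of genes, the scaling, the deepest cells and the minimum of UMIs. Python 3.11.15, NumPy 2.4.6, pandas 2.3.3, SciPy 1.17.1 and Matplotlib 3.10.9 were used, and the ratio code was tested on simulated counts.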

Additional observations from a re-analysis of the deposited data

Results flagged for a closer look

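CRABP1 had ratios on both sides of 1 in different classes, and the difference between the classes was not tested. Its log2 ratio of 8 over 4 weeks was 1.35 in germ-cell-like, 1.80 in Sertoli-like and 1.26 in stroma-like cells, and −0.67 in steroidogenic-like cells, where 10 cells of 4 weeks held 76.2% of the UMIs. Cells outside the classes compared also held these genes above the level in macrophage-like cells. Cells that passed no gate stood at 22.0 CPM for CRABP1, 129 CPM for CRABP2 and 21.5 CPM for RARB at 4 weeks, and at 24.1 CPM for ALDH1A1, 296 CPM for ALDH1A2, 41.7 CPM for CRABP1 and 240 CPM for CRABP2 at 8 weeks. Surface-epithelium-like cells were too few to compare. The 13 such cells of 4 weeks stood at 776 CPM for ALDH1A2, 109 CPM for CRABP2 and 46.8 CPM for RARB, and the 31 of 8 weeks at 608, 166 and 28.3 CPM.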

How the results depend on the processing

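Of 160 counts of genes recomputed over 10 alternative settings, 153 lay within 1.5 times the reported count. The number of the 9 genes 2-fold or more apart was 5 in place of 3 in Sertoli-like cells without cells over 3 times the median UMIs, and 5 in place of 3 in steroidogenic-like cells when cells with several gates went to the highest. In the contractile gate it was 2 in place of 1 with the gates at 4 times the library mean, with the gates at 1 times the mean, and with cells of several gates going to the highest. With the gates at 1 times the mean, 17 pathway genes in place of 11 were apart in stroma-like cells, and 3 in place of 6 of the 9 genes had the same highest class in both libraries. The cause was not tested. Of 233 log2 ratios recomputed, 204 stayed within the counting interval of the reported ratio, 28 lay outside it and 1 turned its direction: CYP26B1 in steroidogenic-like cells was −0.000515 in place of 1.38 when 3 or more distinct markers were required. ALDH1A1 in germ-cell-like cells ranged from 0.31 to 1.87, ALDH1A2 in macrophage-like cells from 2.03 to 3.79, ALDH1A3 in stroma-like cells from 0.86 to 2.41, CYP26B1 in stroma-like cells from −1.22 to −0.90, CRABP2 in Sertoli-like cells from 2.22 to 2.99, CRABP1 in endothelial-like cells from 0.29 to 1.44 and STRA8 there from −2.44 to −1.06. ALDH1A3 in endothelial-like cells ranged from −2.04 to −0.35 and gave no value without the deepest cells. No paired analysis was possible because each stage is 1 library. Depth limits CYP26A1, ALDH1A3 and STRA8, which had 28 to 491 UMIs in a library.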
